A study of Mus musculus with 17 samples.

Results

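Potassium channels that open on calcium or sodium ions were examined in RNA-seq libraries from the hippocampus of adult mice. The group was picked from these channel families and holds 8 of the 55450 genes in the count lists: Kcnma1, Kcnmb2, Kcnmb4, Kcnn1, Kcnn2, Kcnn3, Kcnt1 and Kcnt2. Each of the 8 passed the filter on low counts, which left 17615 genes for testing. There were 17 libraries of polyadenylated RNA. Control mice treated with sgLacZ gave 5 libraries (replicates 13, 14, 15, 16 and 23), epileptic mice treated with sgLacZ gave 6 (replicates 4 to 9), and epileptic mice treated with sgKcna1 gave 6 (replicates 1, 2, 3, 10, 11 and 12).

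Per the study's methods, C57BL/6J wild-type mice were made epileptic by an injection of kainic acid, an agonist of glutamate receptors that causes prolonged seizures, into the right amygdala. The controls were sham animals. All 3 groups received adeno-associated viruses (AAV9) in the right ventral hippocampus and then food with doxycycline, which switches the system on. The viruses carried CRISPR activation: a Cas9 without cutting activity joined to the transcriptional activator VP64 (dCas9-VP64), and a guide RNA. The guide sgKcna1 leads it to the promoter of Kcna1, the gene of the Kv1.1 potassium channel, and sgLacZ has no target in the mouse. Expression was biased to excitatory neurons by a Camk2a promoter, so that only some of the hippocampal cells carried the active system. No sgKcna1-treated control mice are part of the data used, and what the guide does without epilepsy cannot be told apart from what it does with it. The labels do not tie each library to 1 animal, and the p-values measure the spread between libraries.

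These channels link the electrical activity of a neuron to an outward potassium current. BK channels need depolarization and calcium, speed up the repolarization of the action potential and give the fast afterhyperpolarization; their pore is encoded by Kcnma1, and the beta subunits encoded by Kcnmb2 and Kcnmb4 alter their inactivation, gating and pharmacology. SK channels, encoded by Kcnn1, Kcnn2 and Kcnn3, have calmodulin bound to them as the calcium sensor and contribute to the medium afterhyperpolarization and to the limiting of synaptic potentials in spines. Slack (Kcnt1) and Slick (Kcnt2) open on intracellular sodium, and gain-of-function variants of KCNT1 are known from severe epilepsies of infancy.

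Kcnn1 was the only member of the 8 whose level passed the test in any comparison (adjusted p under 0.05 over all genes tested, edgeR's quasi-likelihood test). The sequences before its start sites are therefore shown. The RefSeq promoter windows used here hold 2 of its starts, on the minus strand of chromosome 8 in GRCm38.p6. The annotated gene begins further upstream, at position 70865691, and that end is not shown. The deposited counts are per gene, so reads from transcripts of different starts could not be separated. The 250 bases before each start are given 5′ to 3′, with a GC box (GGGCGG on either strand, a motif that Sp1-type factors can bind) in capitals.
Kcnn1 start a, chr8:70857009-70857258: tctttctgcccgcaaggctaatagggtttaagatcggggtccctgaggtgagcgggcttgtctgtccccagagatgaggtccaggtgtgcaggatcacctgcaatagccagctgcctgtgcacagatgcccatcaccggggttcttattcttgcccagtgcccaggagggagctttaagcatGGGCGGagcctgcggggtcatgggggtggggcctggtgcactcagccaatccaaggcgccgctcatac
Kcnn1 start b, chr8:70863259-70863508: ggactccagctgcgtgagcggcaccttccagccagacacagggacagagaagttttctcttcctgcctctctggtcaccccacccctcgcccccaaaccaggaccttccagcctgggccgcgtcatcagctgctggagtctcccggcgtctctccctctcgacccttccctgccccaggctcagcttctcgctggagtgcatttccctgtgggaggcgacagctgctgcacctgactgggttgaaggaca

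Start a had 1 GC box and start b had none. A GC box was present in 35.7% of the 32851 RefSeq promoter windows, which run from 250 bases before to 50 bases after a start. In windows of that length start a had 16 CpG dinucleotides and a GC content of 64.3%, and start b had 13 and 62.3%, against medians of 7 and 52.7% over all windows. None of TATAAA, TGACGTCA (the core of the cAMP response element) and CACGTG (an E box) was found in either window on either strand. These motifs were present in 13.6%, 1.79% and 7.15% of all windows.

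Libraries held from 11839240 to 28311328 reads in genes. The shallowest was replicate 12 of the epileptic sgKcna1 group, in which 41.5% of reads were unmapped. The deepest was replicate 4 of the epileptic sgLacZ group, which also had the lowest share of unmapped reads (11.0%). Levels are given in CPM, read counts scaled to the size of the library with TMM factors. Without these factors a gene with 3 reads had between 0.106 and 0.253 CPM, and each member lay above this in every library. Kcna1, the targeted gene, had 25.5 to 44.0 CPM in the controls, 16.9 to 56.7 CPM in the epileptic sgLacZ group and 13.9 to 133 CPM in the epileptic sgKcna1 group. The highest value was that of replicate 12, and the other 5 sgKcna1 libraries lay between 13.9 and 29.5 CPM, within or below the range of the epileptic sgLacZ group. The difference between the 2 epileptic groups in Kcna1 was 0.32 on the log2 scale (SE 0.47, adjusted p 0.706), and −0.65 without replicate 12. The Kcna1 level thus did not set 5 of the 6 libraries labelled sgKcna1 apart, and each direction given between the guides rests on the labels alone. Defining markers of neurons, glia and vessels were detected in all groups, and the excitatory markers Slc17a7, Camk2a, Neurod6 and Nrgn summed to between 6315 and 7748 CPM. Sex was read from the counts, as female where Xist exceeded the sum of the Y-linked Ddx3y, Uty, Eif2s3y and Kdm5d. It was female in 2 of 5 control, 4 of 6 epileptic sgLacZ and 2 of 6 epileptic sgKcna1 libraries. Of the 17 libraries, 6 held at least 1 CPM of both Xist and Ddx3y, so their sex is less certain.

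The levels of the 8 genes were first ordered per kilobase of the longest transcript, with the counts of both strands added, since for 2 members the unstranded count misses many reads. In the controls Kcnmb4, which encodes the neuronal BK subunit beta4, was first at 58.8 ± 6.13 CPM per kilobase (SD, n = 5). The BK pore gene Kcnma1 followed at 16.5 ± 1.69 and Kcnn2 (SK2) at 12.2 ± 0.934 CPM per kilobase. The ranges of these 3 genes did not overlap. Kcnn1 at 2.99 ± 0.390, Kcnn3 at 2.64 ± 0.304, Kcnt1 at 2.48 ± 0.757 and Kcnt2 at 2.44 ± 0.360 CPM per kilobase formed a level of their own, in which each gene's range overlapped the next. Kcnmb2 was last at 1.21 ± 0.225 CPM per kilobase and did not reach the range of Kcnt2. Kcnmb4, Kcnma1, Kcnn2 and Kcnmb2 had the same places in both epileptic groups. With the length of all exons merged in place of the longest transcript, Kcnmb4 had 28.7 CPM per kilobase in the controls and was still first. Of the both-strand reads of Kcnmb4, however, 89.1% were also on antisense genes, and the libraries carried no strand information. The first place therefore cannot be assigned to Kcnmb4 itself. From the unstranded counts Kcnmb4 had a mean of 2.45 CPM per kilobase in the controls, lower than every other member except Kcnmb2.

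**Figure D1:**
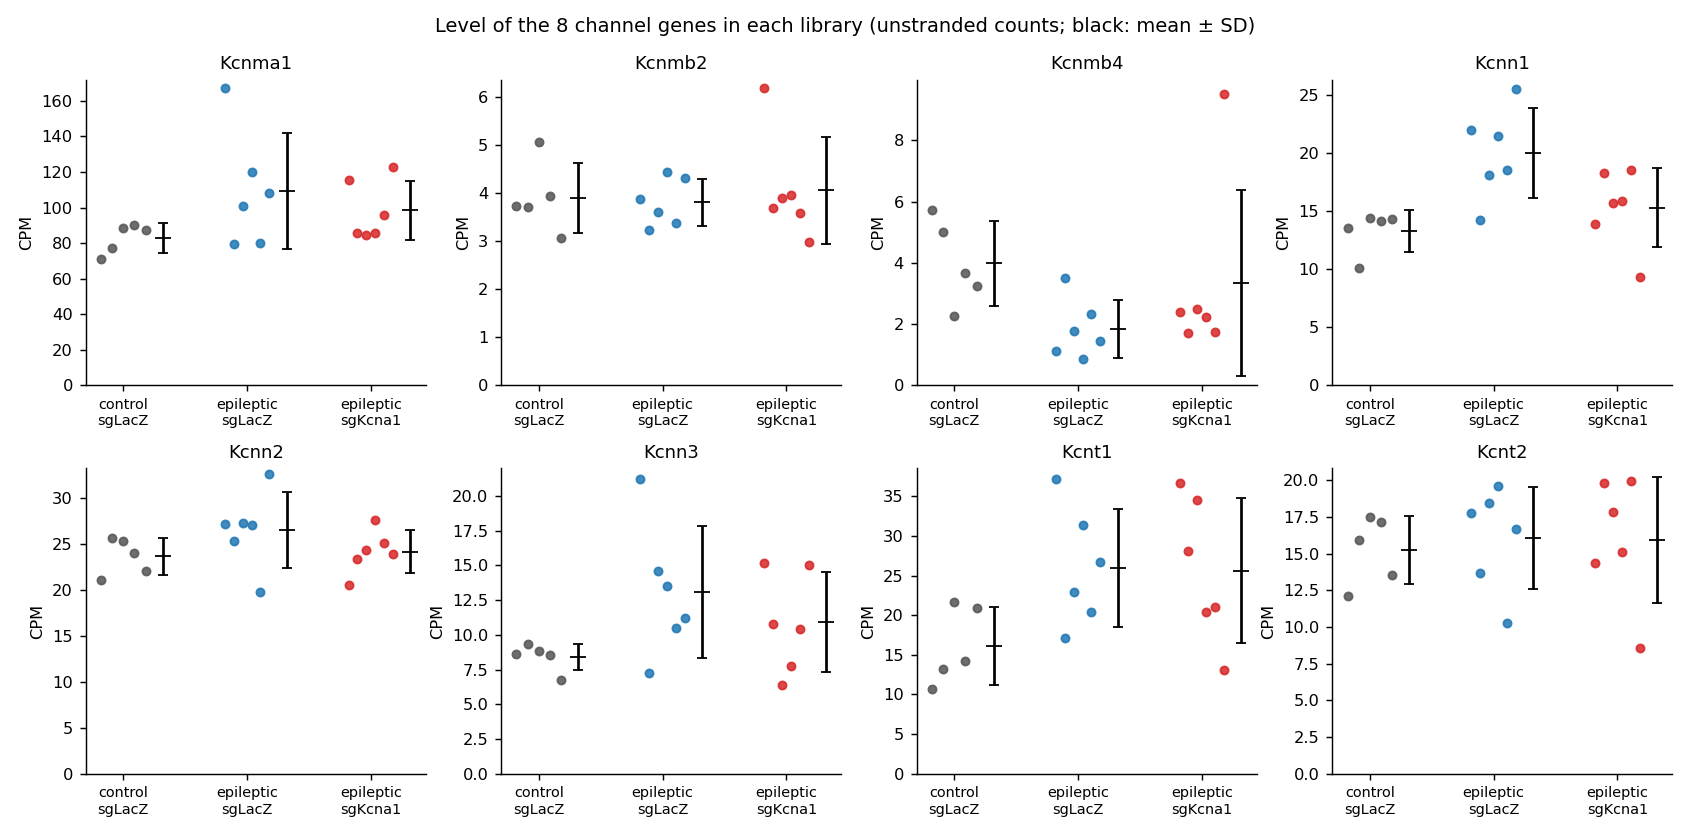
Level of each of the 8 genes in every library from the unstranded counts, in CPM on a linear axis from 0, for 5 control sgLacZ, 6 epileptic sgLacZ and 6 epileptic sgKcna1 libraries, where the black marks are the mean ± SD. For Kcnn1, 5 of 6 epileptic sgLacZ libraries lay above the highest control, and no gene's epileptic sgLacZ libraries were all apart from the controls.

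Epileptic mice treated with sgLacZ were compared with control mice treated with sgLacZ to ask how epilepsy goes with these channel genes. Of the 8 genes, Kcnn1 rose and none fell. Over all genes tested 11.0% were called, 7.26% as higher and 3.76% as lower, so 1 of 8 is near the background. With 1 library left out, the share called over all genes ran from 0% to 31.3%. At an unadjusted p under 0.05, 5 of the 8 genes passed, against 34.7% of all genes. Of these 4 had higher values (18.8% of all genes) and 1 had lower values (15.9%). The median log2 fold change of the 8 genes was 0.28, and that of all genes 0.020. None of the 8 had groups that did not overlap, against 4.39% of all genes. In bulk tissue a change in the number of cells of a type and a change in RNA per cell cannot be told apart.

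Kcnn1 (chr8:70843158-70865691 in GRCm38.p6) encodes SK1, an SK channel subunit. Its level in the controls was 10.1, 13.5, 14.1, 14.3 and 14.4 CPM. In the epileptic sgLacZ group the lowest library had 14.3, the median was 20.0 and the highest had 25.5 CPM. Only replicate 5 of that group fell within the control range, and the other 5 libraries lay above every control. The means were 13.3 ± 1.82 CPM (SD, n = 5) and 20.0 ± 3.88 CPM (n = 6), a difference of 0.59 on the log2 scale (SE 0.17) or 1.51-fold, with an adjusted p of 0.0414. These values rested on 212 to 647 reads per library, and no overlapping gene is listed for Kcnn1.

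The call for Kcnn1 was close to the threshold, as was every call in this comparison, where the lowest adjusted p over all genes was 0.0310. The share of unmapped reads was lower in the epileptic sgLacZ group (11.0% to 24.1%, median 18.3%) than in the controls (19.5% to 27.7%, median 23.1%), with overlapping ranges. With this share as a covariate the difference in Kcnn1 was 0.35 with an adjusted p of 0.110, and with the sex read from the counts it was 0.61 with an adjusted p of 0.0530. Leaving out 1 library at a time gave differences of 0.50 to 0.67 and adjusted p-values of 0.00761 to 0.108, and 11 of the 17 omissions ended the call. Each of the 5 controls was among these 11, with replicates 4, 6, 7 and 9 of the epileptic sgLacZ group. Replicates 3 and 10 of the sgKcna1 group, which enters through the shared estimate of spread, were the others. Without epileptic sgLacZ replicate 4, 7 or 9, or control replicate 13, 14, 16 or 23, no gene at all was called. Those omissions are thus not particular to Kcnn1.

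**Figure D2:**
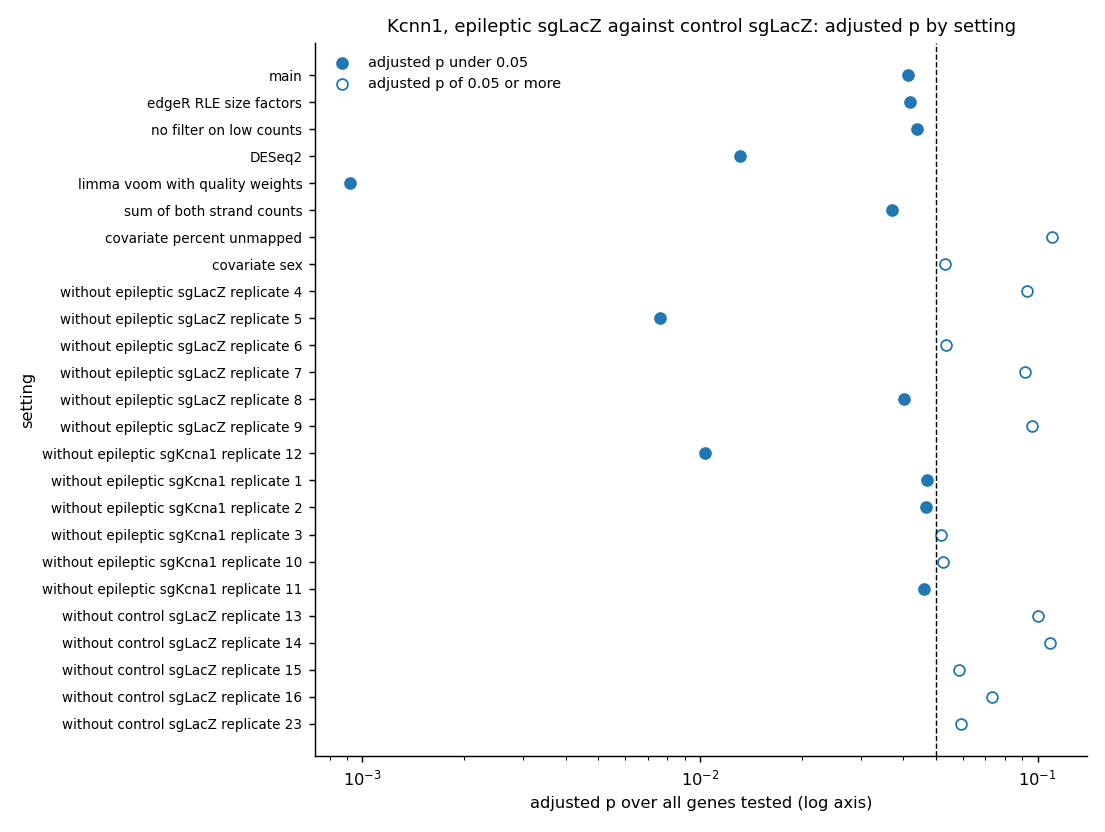
Adjusted p of Kcnn1 for epileptic sgLacZ against control sgLacZ (log axis) under each setting on the vertical axis, where filled points lie under the dashed line at 0.05 and open points do not. The value was 0.0414 in the fit reported and reached 0.110 with the share of unmapped reads as a covariate.

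Some cell type markers were called in the same comparison, in which 7.26% of all genes were called higher and 3.76% lower. The summed levels given here overlapped between the groups for each list. Of 4 astrocyte markers 2 were called higher in the epileptic sgLacZ group, and their summed level was 1479 to 1804 CPM in the controls and 1723 to 2376 CPM in the epileptic sgLacZ libraries. The 3 markers of dentate granule cells summed to 144 to 220 CPM and 175 to 308 CPM, and none was called. The 5 interneuron markers summed to 1196 to 1503 CPM and 801 to 1354 CPM, and none was called. Choroid plexus markers, which mark tissue that lies next to the hippocampus, summed to 1191 to 12452 CPM in the controls and 4302 to 11358 CPM in the epileptic sgLacZ group, with none of 4 called. Of 4 excitatory markers and 4 microglial markers 1 each was called higher, of 5 CA1/CA3 pyramidal cell markers 1 was called higher and 1 lower, and none was called among the markers of oligodendrocytes, vessels or thalamus. No gene of these lists was at 0 in any group. Their part in the values of Kcnn1 and the other members was not tested.

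The other SK genes did not pass. Kcnn3 (chr3:89520164-89672494) encodes SK3. It had 6.78, 8.53, 8.60, 8.82 and 9.32 CPM in the controls, and 7.26, 12.4 and 21.2 CPM as the lowest, median and highest of the epileptic sgLacZ group. Again 5 of 6 epileptic libraries lay above all controls, and replicate 4 was the highest. The difference was 0.64 on the log2 scale (SE 0.25, adjusted p 0.0842), with a 95% interval from 0.15 to 1.12 before any adjustment for the number of genes. The spread was larger in the epileptic group: the SD was 36.4% of the mean, against 11.5% in the controls.

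Kcnn2 encodes SK2, the SK subunit with the highest level per length here. Adding the counts of both strands gave 1.96 times its unstranded reads, so that 49.1% were missing from the unstranded count. RefSeq lists 4 lncRNAs and 2 pseudogenes that overlap Kcnn2, and without strand information the added reads cannot be assigned between it and such genes. With both strands the controls had 41.3, 42.2, 45.1, 47.1 and 49.6 CPM and the epileptic sgLacZ group 37.0, 44.2 and 54.5 CPM as lowest, median and highest. The groups overlapped almost wholly, and the difference was −0.022 (SE 0.11, adjusted p 0.900, 95% interval −0.23 to 0.19). The unstranded counts gave 0.16 (SE 0.11, adjusted p 0.314), so the sign depended on how the strands were counted.

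Among the BK genes, Kcnma1 (chr14:23292288-24005110) encodes the pore. Its controls had 71.0, 77.3, 87.6, 88.4 and 90.4 CPM, and the epileptic sgLacZ group had 79.3, 104 and 167 CPM as lowest, median and highest. In that group 4 of 6 libraries lay above all controls. The highest was replicate 4, the deepest library and the one with the lowest share of unmapped reads. The difference was 0.40 (SE 0.17, adjusted p 0.101, 95% interval 0.073 to 0.72). Kcnmb2 (chr3:31901861-32200180), whose beta2 subunit makes BK currents inactivate, had 3.06 to 5.06 CPM in the controls and 3.24 to 4.44 CPM in the epileptic sgLacZ group, which lay inside the control range. The difference was −0.036 (SE 0.19, adjusted p 0.912, 95% interval −0.41 to 0.34), from 52 to 121 reads per library.

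Kcnmb4 (chr10:116417861-116473859) was the member whose values depended most on the counting. Its gene overlaps antisense transcripts (Kcnmb4os1 and Kcnmb4os2 in RefSeq), and a read that falls in both genes is counted for neither without strand. Only 21 to 120 reads per library were left in the unstranded count, against 1003 to 2872 with both strands added, and 97.2% were missing. From the 2 antisense genes' own counts, 30146 of the 33827 reads of Kcnmb4 over all libraries (89.1%) were also on these genes. Since the libraries carried no strand information, the added counts cannot tell Kcnmb4 from its antisense partners. With both strands the controls had 80.8, 93.1, 97.5, 97.7 and 108 CPM, and the epileptic sgLacZ group had 56.0, 74.0 and 104 CPM as lowest, median and highest. In the epileptic group 4 of 6 libraries lay below all controls, and replicate 5 was near the top of the control range. The difference was −0.30 (SE 0.13, adjusted p 0.120, 95% interval −0.56 to −0.034). The unstranded counts gave −1.13 (SE 0.45, adjusted p 0.0872), the same sign with a larger size and from fewer reads.

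**Figure D3:**
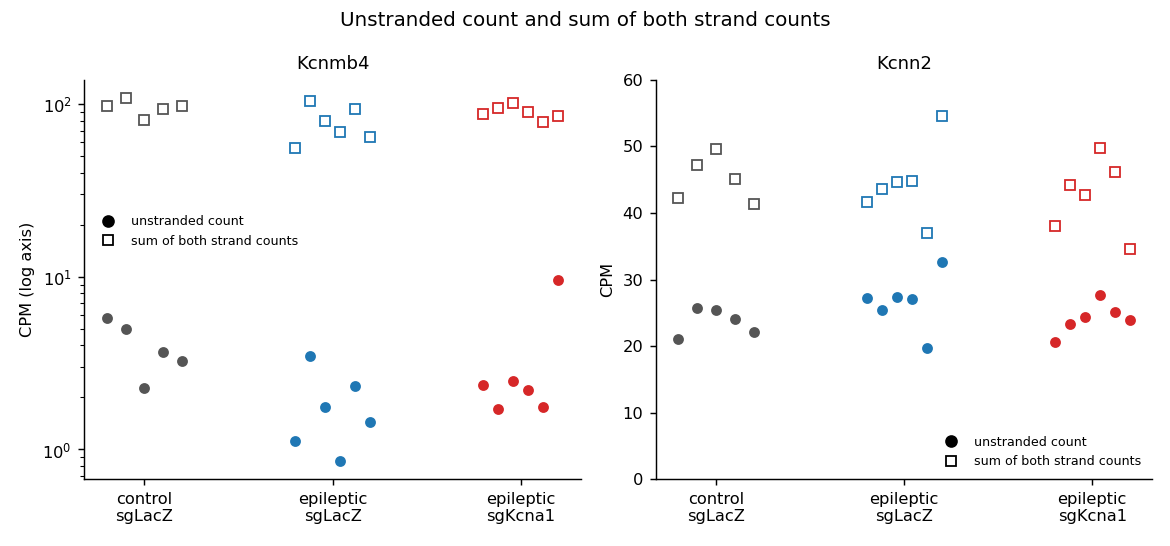
CPM of Kcnmb4 (log axis) and Kcnn2 (linear axis from 0) in each library of the 3 groups, from the unstranded count (filled circles) and from the sum of both strand counts (open squares). The sum was 35.4 times the unstranded reads for Kcnmb4 and 1.96 times for Kcnn2.

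The sodium-activated channels differed from each other in their values. Kcnt1 (Slack, chr2:25863791-25918273) had 10.7, 13.2, 14.2, 20.9 and 21.7 CPM in the controls, and 17.1, 24.8 and 37.2 CPM as lowest, median and highest in the epileptic sgLacZ group. Of 6 epileptic libraries 4 lay above all controls, and the controls themselves spread widely, with an SD of 30.5% of the mean. The difference was 0.69 (SE 0.26, adjusted p 0.0764, 95% interval 0.18 to 1.19), the highest of the 8 genes. Under the 7 other settings of the fit it ran from 0.31 to 0.72, with adjusted p-values from 0.00986 (limma voom with quality weights) to 0.305. Kcnt2 (Slick, chr1:140245657-140614045) had 12.1, 13.6, 15.9, 17.1 and 17.5 CPM in the controls and 10.3, 17.2 and 19.6 CPM in the epileptic sgLacZ group. Its epileptic libraries reached both below and above the controls, and the difference was 0.077 (SE 0.20, adjusted p 0.805, 95% interval −0.31 to 0.46). Whether the differences of Kcnt1 and Kcnt2 are unequal was not tested.

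**Figure D4:**
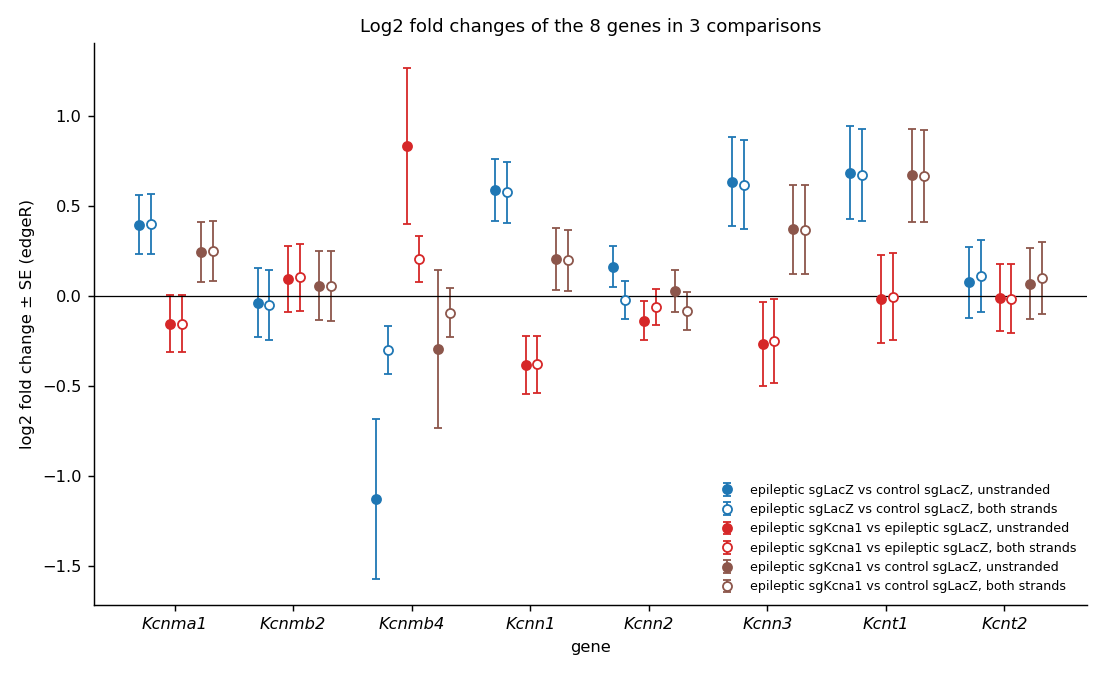
Log2 fold change ± SE (edgeR) of the 8 genes in the 3 comparisons, from unstranded counts (filled) and from both strands added (open). Kcnn1 stood at 0.59 in epileptic sgLacZ against control and −0.38 in sgKcna1 against sgLacZ, and the filled and open values of Kcnmb4 were −1.13 and −0.30 in the first of these.

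The 2 epileptic groups were compared to ask whether activation of Kcna1 goes with a change in these channels. None of the 8 genes passed, and neither did any other gene (0% called, with 19.2% of genes at an unadjusted p under 0.05, 8.69% higher and 10.5% lower). Without epileptic sgLacZ replicate 5, 1508 genes (8.54%) were called, and still none of the 8. The groups overlapped for each of the 8 genes, and they did not for 0.483% of all genes. DESeq2 called 134 genes and limma voom with quality weights 12, none of them a member. Kcnn1 had 9.33, 15.8 and 18.6 CPM as lowest, median and highest in the sgKcna1 group, with 2 of 6 libraries below all sgLacZ libraries. It differed by −0.38 (SE 0.16), with an unadjusted p of 0.0292 and an adjusted p of 0.231, and was the only member with an unadjusted p under 0.05. The lowest of its 6 libraries was replicate 12, which had the most unmapped reads. Without sgKcna1 replicate 1 or 12, or epileptic sgLacZ replicate 4, 7 or 9, no member had an unadjusted p under 0.05. In the sgKcna1 and epileptic sgLacZ groups the 3 dentate granule cell markers summed to 74.3 to 206 and 175 to 308 CPM. The 4 choroid plexus markers summed to 288 to 7767 and 4302 to 11358 CPM. Interneuron markers summed to 969 to 1427 and 801 to 1354 CPM, and microglial markers to 255 to 449 and 214 to 372 CPM. These ranges overlapped, and the part of cell numbers in the values of the members was not tested.

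For the other members the 95% intervals of this difference included 0. Kcnma1 had 84.7 to 123 CPM in the sgKcna1 group and differed by −0.15 (interval −0.46 to 0.16). Kcnmb4 with both strands had 78.5 to 101 CPM and differed by 0.21 (interval −0.046 to 0.46), and by 0.83 with the unstranded counts (adjusted p 0.287). Kcnn3 had 6.39 to 15.2 CPM and differed by −0.26 (interval −0.72 to 0.19). Kcnt1, at 13.1 to 36.6 CPM, differed by −0.015 (interval −0.49 to 0.46), and Kcnt2, at 8.59 to 19.9 CPM, by −0.0075 (interval −0.37 to 0.36). Kcnn2 with both strands, at 34.6 to 49.8 CPM, differed by −0.058 (interval −0.26 to 0.14), and Kcnmb2, at 2.99 to 6.20 CPM, by 0.095 (interval −0.26 to 0.45). These intervals leave room for differences of either sign in each of these 7 genes.

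Epileptic mice treated with sgKcna1 were also set against the controls. Again 0% of genes were called, with 6.77% at an unadjusted p under 0.05 (4.29% higher and 2.48% lower), and the groups overlapped for each of the 8 genes but not for 1.14% of all genes. DESeq2 called 39 genes and limma voom with quality weights 71, none of them a member. Kcnt1 was the only member at an unadjusted p under 0.05: its 6 sgKcna1 libraries had 13.1, 24.6 and 36.6 CPM as lowest, median and highest, and 3 of them lay above all controls. It differed by 0.67 (SE 0.26, unadjusted p 0.0178, adjusted p 0.674). Without sgKcna1 replicate 1 or control replicate 13 no member had an unadjusted p under 0.05. Kcnn1 differed by 0.21 (SE 0.17, adjusted p 0.811), with 4 of 6 libraries above all controls and replicate 12 below them. This comparison shares its controls with the first one and its sgKcna1 libraries with the second, so the 3 values of a gene are not independent. Side by side they were 0.59, −0.38 and 0.21 for Kcnn1 and 0.69, −0.015 and 0.67 for Kcnt1. Under the 7 other settings of the fit they ran from 0.35 to 0.66, −0.41 to −0.13 and 0.20 to 0.33 for Kcnn1. For Kcnt1 they ran from 0.31 to 0.72, −0.074 to 0.41 and 0.65 to 0.73, so the size of each depended on the setting.

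The balance between subunits was described per library, from counts of both strands per kilobase and without a test. For each unit of Kcnma1, Kcnmb4 stood at 2.84 to 4.32 in the controls (median 3.41), 1.03 to 4.08 in the epileptic sgLacZ group (median 2.13) and 2.13 to 3.67 in the sgKcna1 group (median 2.88). The lowest ratio was that of epileptic sgLacZ replicate 4, which had the highest Kcnma1 and the lowest Kcnmb4 of all libraries. These ratios depend on the length used: per kilobase of merged exons the means of Kcnmb4 and Kcnma1 were 28.7 and 16.0 CPM in the controls and 23.4 and 21.1 CPM in the epileptic sgLacZ group. They also include the reads that Kcnmb4 shares with its antisense genes. The ratio of Kcnn1 to Kcnn2 was 0.180 to 0.286 in the controls, 0.272 to 0.432 in the epileptic sgLacZ group and 0.223 to 0.339 in the sgKcna1 group. On this count Kcnn1 was lower than Kcnn2 per length in every library. The unstranded counts used for the tests brought the genes closer, with control means of 3.29 (Kcnn1) and 6.43 (Kcnn2) CPM per kilobase. The ratio of Kcnt1 to Kcnt2 had medians of 0.829, 1.48 and 1.41 in the same order of groups, with overlapping ranges.

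Genes that work with these channels were counted from 5 lists chosen by role. Of 35 such genes in the count lists 33 were tested, and in epileptic sgLacZ mice against controls 2 rose and 2 fell. Over all genes 7.26% were called higher and 3.76% lower, so 4 of 33 is near the background. The other 2, Kcnmb3 and Lrrc52, had at most 7 reads in a library. The median log2 fold change of the 33 genes was 0.059.

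Among 9 calcium sources (voltage-gated calcium channels and intracellular release channels) 2 were called higher and none lower. Over all genes these shares were 7.26% and 3.76%. Cacna1e, the R-type calcium channel Cav2.3, went from 72.8 ± 9.56 CPM (n = 5) in the controls to 128 ± 41.5 CPM (n = 6), by 0.82 on the log2 scale (SE 0.21, adjusted p 0.0347). Ryr3, a ryanodine receptor, went from 4.58 ± 0.918 to 12.3 ± 7.93 CPM, by 1.43 (SE 0.37, adjusted p 0.0347). The both-strand sum of Ryr3 was 1.94 times its unstranded reads, and on that sum the difference was 0.36 with an adjusted p of 0.256, which ended the call. Cacna1b, the N-type channel Cav2.2, differed by 0.58 (adjusted p 0.0511).

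The SK complex list held calmodulin, casein kinase 2 and protein phosphatase 2A, which set the calcium sensitivity of SK channels. Of its 9 genes 1 fell and none rose, against 3.76% and 7.26% of all genes. Calm2, 1 of the calmodulin genes, had 3451 ± 269 CPM in the controls and 2395 ± 623 CPM in the epileptic sgLacZ group. This was a difference of −0.53 (SE 0.15, adjusted p 0.0399). Calm3, which encodes the same protein, differed by −0.15 (adjusted p 0.277).

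Among 4 tested sodium channel genes 1 fell, against 3.76% of all genes. Scn2a1, which encodes Nav1.2, had 365 ± 22.4 CPM in the controls and 249 ± 39.2 CPM in the epileptic sgLacZ group, and the groups did not overlap. The difference was −0.55 (SE 0.16, adjusted p 0.0423). Scn1a, Scn3a and Scn8a did not pass. Of 5 regulators of BK, Slack or the afterhyperpolarization (Fmr1, Phactr1, Crbn, Ano3 and Hpca) none passed. Of 6 tested further relatives and BK auxiliary genes none passed either, with differences from −0.43 (Kcnn4, the intermediate-conductance channel) to 0.58 (Lrrc26, a BK gamma subunit).

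The calls of Cacna1e, Ryr3, Calm2 and Scn2a1 were close to the threshold, like that of Kcnn1, and were recomputed under other settings after seeing the data. No gene had an adjusted p below 0.0310 in this comparison. The omissions given for Kcnn1 that left no gene called ended these calls too. With the share of unmapped reads as a covariate none of them passed (adjusted p 0.0742 for Cacna1e, 0.0762 for Scn2a1, 0.0831 for Calm2 and 0.115 for Ryr3). With the sex read from the counts as a covariate Scn2a1 passed (adjusted p 0.0489). Cacna1e and Ryr3 (both 0.0525) and Calm2 (0.0588) did not. Leaving out 1 library ended the call in 8 of 17 omissions for Cacna1e and Ryr3, 10 for Calm2 and 13 for Scn2a1.

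None of the 33 genes was called in the other comparisons. In epileptic sgKcna1 against epileptic sgLacZ, 8 of the 33 had an unadjusted p under 0.05, against 19.2% of all genes. In epileptic sgKcna1 against controls 1 of the 33 had, against 6.77% of all genes. Both counts are near the background. For the 4 genes named above the differences between the 2 epileptic groups were −0.46 (Cacna1e), −0.996 (Ryr3), 0.33 (Calm2) and 0.49 (Scn2a1), with adjusted p-values from 0.213 to 0.239.

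**Figure D5:**
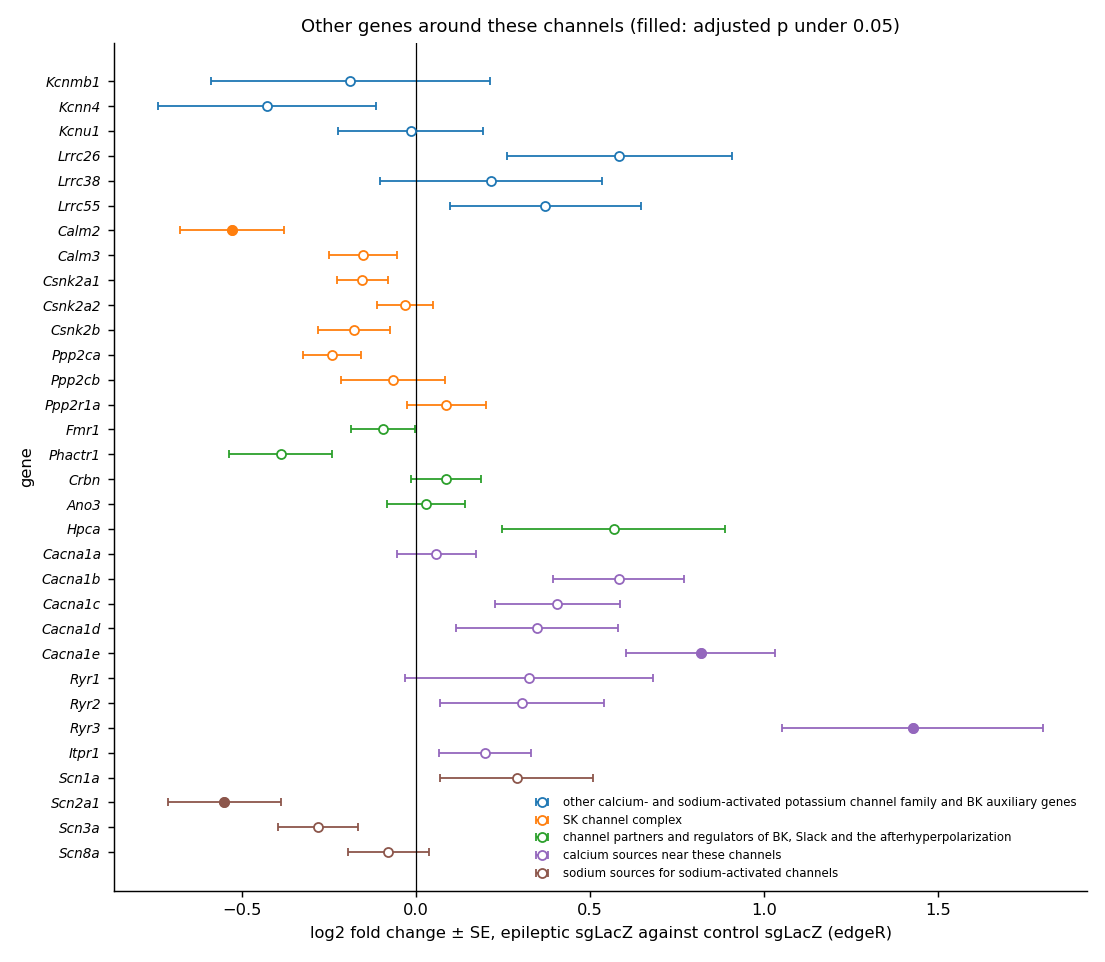
Log2 fold change ± SE (edgeR, unstranded counts) of 32 of the 33 tested genes that work with these channels, epileptic sgLacZ against control sgLacZ, coloured by list, with filled points at an adjusted p under 0.05. Cacna1e (0.82) and Ryr3 (1.43) were called higher and Calm2 (−0.53) and Scn2a1 (−0.55) lower.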

How the data were processed

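Per the labels, polyadenylated RNA from adult mouse hippocampus was sequenced, 1 library per sample. The authors aligned reads to mm10 with STAR 2.7 and deposited raw counts per gene, unstranded and for each strand, not normalized; trimming and the annotation release are not given in the sources used here. The kit in the labels keeps no strand information, the kit in the methods does, and forward and reverse counts were nearly equal. Multi-mapped reads are not in these counts. Unstranded counts of 17 libraries were scaled by TMM, filtered by filterByExpr and fitted with 1 coefficient per group in edgeR 4.0.16 (glmQLFit, glmQLFTest, two-sided), with Benjamini-Hochberg adjustment over 17615 genes and a threshold of 0.05. Intervals are the estimate ± the normal 95% range of its SE. The code of the test was checked on simulated counts in which each gene had the same set spread between libraries. This is simpler than these data, so the check does not measure error rates here. Alternatives were RLE scaling, no filter, DESeq2 1.42.0, limma 3.58.1 (voom with quality weights), both strands added, 2 covariates (share of unmapped reads, sex) and leaving out each library. The 8 genes are a selection from the channel families, described with the targeted gene and 5 lists by role; some values of single genes are not reported here. The members and lists were chosen with earlier results of these data known. Lengths came from mm9 transcripts, coordinates and upstream sequences from RefSeq (GRCm38.p6). Upstream sequences were listed for 6 of the 8 members, and Kcnn2 and Kcnt1 were not among them.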

Additional observations from a re-analysis of the deposited data

Results flagged for a closer look

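In 3 of the 30 groups of values examined (the 8 genes in each of 3 groups of libraries, with Kcnmb4 and Kcnn2 also counted on both strands), 1 library stood apart from the others by Dixon's criterion. Chance alone gives this in about 1 of 20 groups. Kcnmb2 had 6.20 CPM in replicate 1 of the epileptic sgKcna1 group, and the nearest library had 3.96 CPM. Kcnmb4 had 9.52 CPM from unstranded counts in replicate 12 of the epileptic sgKcna1 group, with the nearest at 2.50 CPM, whereas on both strands it had 84.9 CPM, inside the range of that group. Kcnn1 had 10.1 CPM in replicate 14 of the controls, with the nearest at 13.5 CPM, and without this library the difference between epileptic sgLacZ and control mice was 0.50 with an adjusted p of 0.108.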

How the results depend on the processing

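No paired analysis was possible because the replicate numbers in the labels are not shared between groups. In epileptic sgLacZ against control mice, RLE scaling, no filter and both strands added each called 1 of the 8 genes (10.6%, 4.53% and 14.2% of all genes). DESeq2 called 2 (Kcnn1 and Kcnt1), limma voom with quality weights 5, and the fits with the share of unmapped reads or with sex 0. Over all genes the last 4 settings called 20.6%, 41.4%, 2.43% and 2.93%. Leaving out 1 library gave 0 to 5 members: 5 without epileptic sgLacZ replicate 5 (Kcnma1, Kcnmb4, Kcnn1, Kcnn3 and Kcnt1, with 31.3% of all genes called), 3 without epileptic sgKcna1 replicate 12 (Kcnmb4, Kcnn1 and Kcnt1, with 27.1%), and 0 in 11 omissions, those named for Kcnn1. In sgKcna1 against control mice the share of unmapped reads as a covariate called 1 member (Kcnt1, 0.73, adjusted p 0.0363, with 1.51% of all genes called), and no other setting called any. In sgKcna1 against sgLacZ none was called under any setting. Calls of the 33 genes around the channels in epileptic sgLacZ against control mice, which were recomputed after seeing the data, numbered 11 with limma voom, 0 with the share of unmapped reads, 1 with sex and 0 to 9 with a library left out, 0 without any 1 of the 5 controls or without epileptic sgLacZ replicates 4, 7 or 9, 2 without epileptic sgLacZ replicate 6 or sgKcna1 replicate 10, and 9 without epileptic sgLacZ replicate 5 or sgKcna1 replicate 12. In sgKcna1 against sgLacZ they numbered 0 to 4, with 4 without epileptic sgLacZ replicate 5.

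Of 168 member values under the 7 other settings 149 kept their direction and side of the threshold, 2 lost and 6 gained a call, and 11 changed sign, none of them called. Of 408 values with a library left out 368 kept both, 11 lost and 6 gained a call, and 23 changed sign. The values that changed sign were, for epileptic sgLacZ against control, Kcnmb2 with voom (0.018) and sex (0.036), Kcnn2 on both strands (−0.022) and Kcnt2 with unmapped reads (−0.21). For sgKcna1 against sgLacZ they were Kcnmb4 with unmapped reads (−0.12), Kcnt1 with voom (0.024) and unmapped reads (0.41), and Kcnt2 with voom (0.053), unmapped reads (0.29) and sex (0.015). For sgKcna1 against control it was Kcnn2 on both strands (−0.081). Kcna1 changed sign with voom (−0.82), unmapped reads (−0.41) and sex (−0.13) in sgKcna1 against control, with voom (−0.31) and unmapped reads (−0.85) in sgKcna1 against sgLacZ, and with unmapped reads (0.44) in epileptic sgLacZ against control. With a library left out, the ranges that crossed 0 in sgKcna1 against sgLacZ were −0.23 to 0.012 (Kcnma1), −0.068 to 0.16 (Kcnmb2), −0.15 to 0.12 (Kcnt1), −0.11 to 0.11 (Kcnt2) and −0.65 to 0.62 (Kcna1). In sgKcna1 against control they were −0.11 to 0.17 (Kcnmb2), −0.013 to 0.071 (Kcnn2), −0.0034 to 0.18 (Kcnt2) and −0.87 to 0.29 (Kcna1), and in epileptic sgLacZ against control −0.11 to 0.077 (Kcnmb2). The causes were not tested. Kcnmb2 rested on 32 to 141 reads per library, which limits its precision.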

Other observations

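The 8 genes were also set beside each other and beside other genes across the 17 libraries, by Spearman correlation of log2 CPM from unstranded counts. These values are descriptions, since libraries share depth, dissection and group. The highest correlation between members was that of Kcnma1 and Kcnn3 (0.74, and 0.70 after subtracting each group's mean). The lowest was that of Kcnmb4 and Kcnn1 (−0.93, and −0.82 after subtracting group means), where Kcnmb4 rests on 21 to 120 reads. Among 9318 genes with a mean of at least 5 CPM, the gene most like 7 of the members was Pde4a for Kcnma1 (0.94), Lima1 for Kcnmb2 (0.78), Gm13339 for Kcnmb4 (0.98), Pphln1 for Kcnn1 (0.97), Pkd2 for Kcnn2 (0.89), Timp2 for Kcnn3 (0.92) and Atp11b for Kcnt2 (0.87). After subtracting group means these 7 ran from 0.78 (Kcnn1) to 0.93 (Kcnma1). Each gene was picked as the highest of all candidates, which favours high values, and that of Kcnmb4 rests on the same few reads.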
